A study of Mus musculus with 2 samples.

Results

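The transcription factor TAL1 works in red cell precursors as part of a multiprotein complex, and 10 genes for its subunits and their closest relatives were followed here: Tal1, Lyl1, Lmo2, Lmo4, Ldb1, Tcf3, Tcf4, Tcf12, Cbfa2t3 and Ssbp3. They were taken by gene symbol from the 43346 gene rows of 2 RNA-seq libraries, and all 10 were found. Both libraries came from poly(A) RNA of G1E-ER4, an immortalized mouse erythroid cell line labelled as male. G1E cells have no working copy of Gata1, and the ER4 subline has it restored as a fusion of the erythroid regulator GATA1 with the estrogen receptor's hormone-binding domain. Both cultures had received 10 nM 17beta-estradiol for 30 h, which activates the fusion protein, and they are labelled as biological replicates 1 and 2 of 1 group. No untreated library was analysed here, so the values describe the make-up of the complex at the RNA level in induced cells of 1 line and no response to estradiol. The labels do not say how the cultures were separated, and spreads and p-values therefore measure only the difference between these 2 libraries.

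TAL1 is a basic helix-loop-helix (bHLH) protein that binds DNA at short E-box motifs as a dimer with a ubiquitous bHLH partner, an E protein. The E proteins are E12 and E47, both made by Tcf3, and the products of Tcf12 (HEB) and Tcf4 (E2-2). TAL1 also binds the LIM-only adaptor LMO2, which in turn binds LDB1, a protein that can pair with itself and so bring distant complexes together. SSBP3 belongs to the single-stranded DNA-binding protein family, which binds LDB1 and is known to protect it from degradation. CBFA2T3, also called ETO2, is a corepressor that joins the complex through the E protein. In erythroid cells the complex is best known at sites where GATA1 binds next to TAL1, and LYL1 and LMO4 are paralogs of TAL1 and LMO2.

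All 10 genes reached at least 1 TPM in both libraries. TPM, the level per unit of transcript length, has the same total in either library. Among all gene rows 18.5% did so, and among the 21474 protein-coding genes 35.3% did. The median level of the 10 genes was 204.8 TPM, compared with 15.4 TPM among protein-coding genes that reached this level in both libraries. In TPM over all transcripts of a gene, the genes fell into an abundant set of 7 and a low set of 3. The low set was Lmo4, Lyl1 and Tcf4, each under 5 TPM in either library, and the next gene above them, Tcf12, was at 66.2 TPM or more.

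Among the DNA-binding bHLH genes, Tal1 (chromosome 4, 115056426 to 115071755, plus strand, build mm10) was at 417 and 414 TPM in replicates 1 and 2. Its mean of 415 ± 1.81 TPM (SD, n = 2) was higher than that of 98.8% of protein-coding genes. Lyl1 (chromosome 8, 84701457 to 84704715, plus strand) had 2.96 and 2.50 TPM, from 363 and 233 counts. The exact 95% Poisson intervals of Lyl1 were 2.66 to 3.28 TPM and 2.19 to 2.84 TPM, which cover counting error only. Tal1 thus exceeded its paralog 141-fold in replicate 1 and 166-fold in replicate 2, and took 99.3% ± 0.0745 of the TPM of the pair.

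Of the E protein genes, Tcf3 (chromosome 10, 80409514 to 80433647, minus strand) had 154 and 174 TPM. Tcf12 (chromosome 9, 71842688 to 72111871, minus strand) had 66.2 and 80.4 TPM. Tcf4 (chromosome 18, 69343356 to 69689079, plus strand) had 1.99 and 1.52 TPM, with 312 and 190 counts. Each library gave the same order, with Tcf3 above Tcf12 and Tcf4 near the bottom of the 10 genes. The shares of the summed E protein TPM were 68.7% ± 0.990 for Tcf3, 30.6% ± 1.20 for Tcf12 and 0.744% ± 0.212 for Tcf4.

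The adaptor gene Lmo2 (chromosome 2, 103957986 to 103981878, plus strand) had the highest TPM of the 10, with 781 and 674 TPM. Its paralog Lmo4 (chromosome 3, 144188530 to 144205220, minus strand) had 2.93 and 4.11 TPM. Lmo2 took 99.5% ± 0.164 of the TPM of this pair, so that 1 gene made nearly all of the transcript in each of the bHLH and LIM-only pairs. Ldb1 (chromosome 19, 46031570 to 46045214, minus strand) had 296 and 257 TPM. Ssbp3 (chromosome 4, 106910701 to 107049694, plus strand) had 681 and 593 TPM, second among the 10. The corepressor gene Cbfa2t3 (chromosome 8, 122625141 to 122699109, minus strand) had 259 and 232 TPM.

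**Figure D1:**
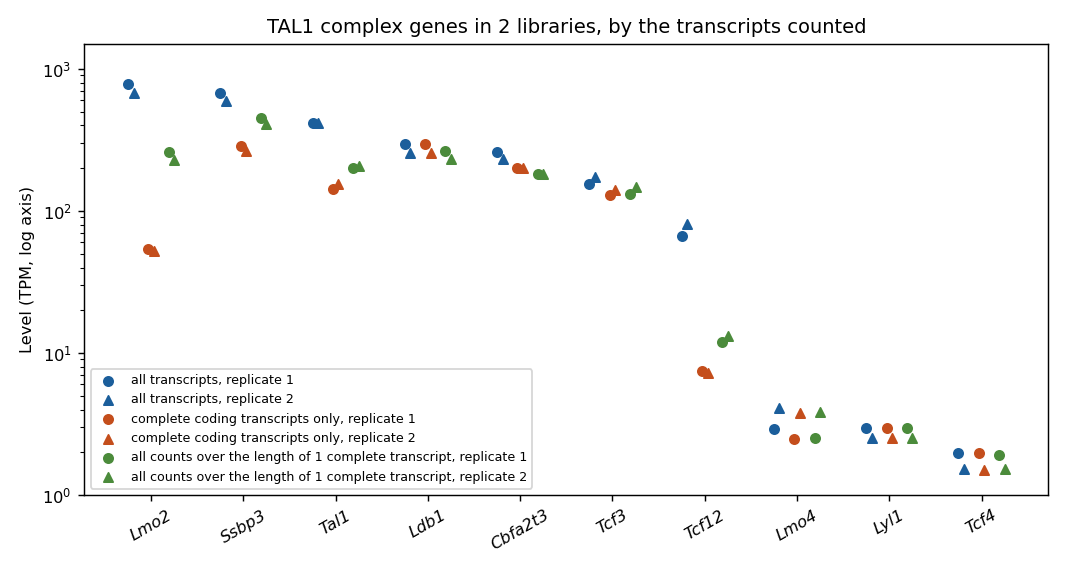
Level of each gene in TPM on a log axis, with replicate 1 as circles and replicate 2 as triangles. Blue points use all transcripts of a gene, orange points only complete coding transcripts, and green points all counts of the gene over the length of 1 complete coding transcript. Lmo2, Tcf12, Tal1 and Ssbp3 drop when short models are left out, whereas Lmo4, Lyl1 and Tcf4 stay below 5 TPM in each measure.

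These levels depended on which transcript models carried the reads. The library tables split each gene over annotated transcripts, and some of these models are short fragments whose start or end is marked as not found. For Lmo2, the incomplete models Lmo2-206 (478 bases) and Lmo2-204 (848 bases) held 61.2% and 28.2% of its TPM in replicate 1, and 59.0% and 31.3% in replicate 2. Complete coding transcripts of Lmo2 held 6.96% and 7.73% of the TPM, and 20.4% and 22.2% of the counts. For Tcf12, the incomplete 600-base model Tcf12-203 held 82.0% and 77.5% of TPM but 32.7% and 33.0% of counts. The complete 6299-base transcript Tcf12-202 held 11.2% and 8.96% of Tcf12 TPM but 61.5% and 54.6% of counts. The 2 genes thus differ: most counts of Lmo2 lay on incomplete models, whereas most counts of Tcf12 lay on complete ones.

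Tal1 and Ssbp3 showed the same kind of split. The incomplete 683-base model Tal1-202 led by TPM, with 65.7% and 62.3%, and the 2894-base Tal1-204 led by counts, with 65.6% and 69.8%. For Ssbp3 the 629-base model Ssbp3-211, annotated as a processed transcript without a coding sequence, held 48.6% and 45.5% of TPM and 19.6% and 17.1% of counts. The coding transcript Ssbp3-202 held 34.7% and 35.7% of TPM and 52.4% and 51.3% of counts. Over the 10 genes, the leading transcript by TPM was the same in both libraries for 9, all except Tcf4, while the leader by TPM and the leader by counts differed for 5 in at least 1 library.

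When only complete coding transcripts were summed, a measure added after the data were seen, the level of Lmo2 was 53.2 TPM, 13.7-fold below its level over all transcripts. Tcf12 fell to 7.33 TPM, 10.0-fold lower. Tal1 and Ssbp3 fell 2.78-fold and 2.30-fold, to 150 and 277 TPM. These 4 of 10 genes dropped more than 2-fold, and among the 7501 expressed protein-coding genes with a complete coding transcript above 0, 27.7% did. Ldb1 at 274 TPM, Cbfa2t3 at 200 TPM and Tcf3 at 135 TPM moved by less than 1.5-fold. A second added measure, all counts of a gene over the length of its most counted complete coding transcript, gave intermediate levels of 244 TPM for Lmo2, 12.6 TPM for Tcf12, 204 TPM for Tal1 and 432 TPM for Ssbp3. Across all expressed protein-coding genes these measures moved the median by -0.04 and -0.01 on the log2 scale.

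**Figure D2:**
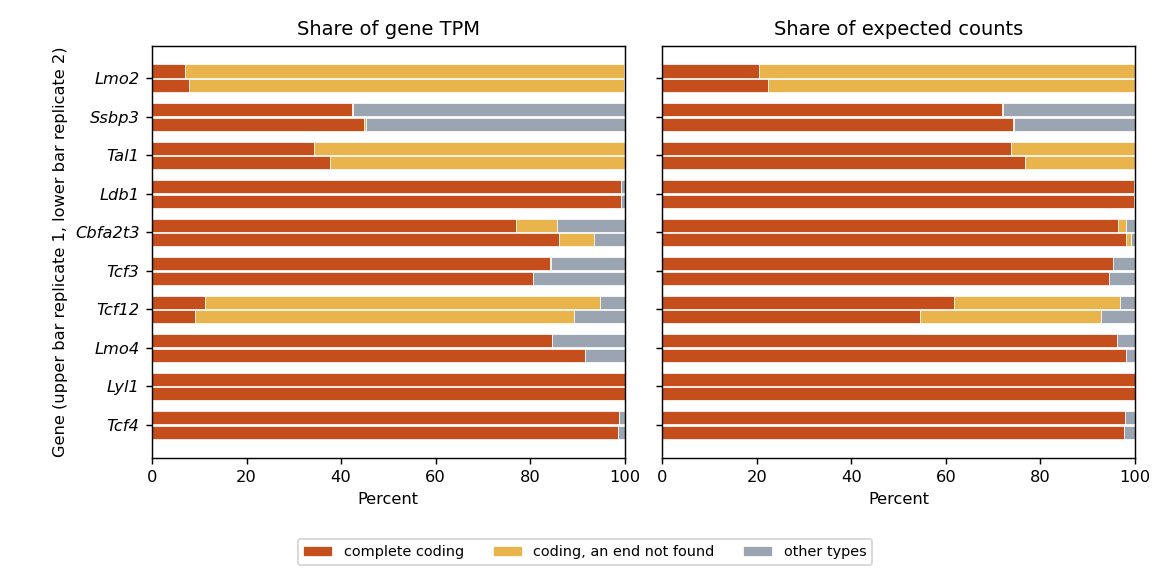
Share of each gene's TPM (left) and of its expected counts (right) on complete coding transcripts, on coding transcripts with an end not found and on other transcript types. The upper bar of each gene is replicate 1 and the lower bar replicate 2. The share of Tcf12 on complete transcripts is 11.2% of TPM and 61.7% of counts in replicate 1.

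The proportions between partners were compared as log2 ratios of TPM + 1 within each library. Of the 45 pairs among the 10 genes, 42 differed at an adjusted p of at most 0.05 in limma with Benjamini-Hochberg adjustment over all genes tested against the same reference gene. Over all genes set against 9 of the members as reference, 93.9% of ratios were called, from 78.7% with Lmo4 to 99% with Lmo2. A called difference from a member is thus what most genes show. Ratios between genes outside the members were not tested. The test uses a spread pooled over all genes, because limma estimated an infinite prior weight for it. The 3 pairs that were not called are neighbours in the order of levels.

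Lmo2 and Ssbp3 were not told apart, with log2 ratios of 0.20 and 0.19 and an SE of 0.20 (limma adjusted p = 0.352). Ldb1 and Cbfa2t3 were not told apart either, with ratios of 0.19 and 0.15, an SE of 0.18 and a limma adjusted p of 0.365. The remaining uncalled pair was Lyl1 over Lmo4, with 0.01 in replicate 1 and -0.55 in replicate 2 (SE 0.39, limma adjusted p = 0.527). Each of these 3 pairs was called under some alternative. Lmo2 over Ssbp3 was 1.37 with protein-coding transcripts only (limma adjusted p = 1.29e-14) and -2.36 over complete coding transcripts (limma adjusted p = 1.71e-48), so that its direction depended on the transcripts summed. Ldb1 over Cbfa2t3 was 0.45 over complete coding transcripts (limma adjusted p = 0.0208), and Lyl1 over Lmo4 was -1.53 after adjustment for GC content (limma adjusted p = 0.000334). The other neighbours were called as different. The order over all transcripts was thus Lmo2 and Ssbp3, then Tal1, then Ldb1 and Cbfa2t3. Tcf3, Tcf12, the pair of Lmo4 and Lyl1, and Tcf4 followed in that order. In a simulation the test called only 12% of genes at a true log2 ratio of 1 and 0% at 0. No ratio between these was simulated, so called differences smaller than 1 could not be judged by it. Tal1 lay 0.61 below Ssbp3 (limma adjusted p = 0.00298) and 0.59 above Ldb1 (limma adjusted p = 0.00423) on the log2 scale. Lyl1 lay 0.44 above Tcf4 (limma adjusted p = 0.00928), but with posterior mean TPM the difference was 0.26 and was not called (limma adjusted p = 0.0804), and after adjustment for GC content it turned to -0.90.

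The following 2 of the ratios to Ldb1 were nearly the same in both libraries. The TPM of Lmo2 was 2.64 times that of Ldb1 in replicate 1 and 2.63 times in replicate 2, and that of Ssbp3 was 2.30 and 2.31 times that of Ldb1. Relative to Tal1, the TPM ratios were 1.87 and 1.63 for Lmo2, 0.711 and 0.620 for Ldb1, 0.623 and 0.560 for Cbfa2t3, and 0.371 and 0.420 for Tcf3. Other ratios to Ldb1 moved more, some of them only slightly. In log2 ratios of TPM + 1, Lyl1 over Ldb1 was -6.23 and -6.20, Ldb1 over Tcf4 6.63 and 6.68, and Ldb1 over Cbfa2t3 0.19 and 0.15. With 0.01 TPM added in place of 1, Ldb1 over Tcf4 was less steady, at 7.21 and 7.39. Lyl1 over Ldb1 was then -6.64 and -6.68. Larger moves were those of Ldb1 over Tcf3, with 0.93 in replicate 1 and 0.56 in replicate 2, and Ldb1 over Tcf12, with 2.14 and 1.66. Lmo4 over Ldb1 was -6.24 and -5.66. A steady ratio to Ldb1 was thus not particular to Lmo2 and Ssbp3, and its frequency over all genes was not tested.

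Several of these proportions changed with the measure. Lmo2 was 0.185 and 0.204 times Ldb1 over complete coding transcripts, and 0.980 and 0.981 times Ldb1 when all counts were set over 1 complete length, where the pair was not called (limma adjusted p = 0.894). Tal1 over Ldb1 turned from 0.59 to -0.87 on the log2 scale over complete coding transcripts (limma adjusted p = 0.000111), and over 1 complete length it was -0.28 and was not called (limma adjusted p = 0.180). Tal1 over Lmo2 turned from -0.80 to 1.47 over complete coding transcripts and was -0.25 over 1 complete length, where it was not called (limma adjusted p = 0.224). Ldb1 over Ssbp3 changed from -1.20 to -0.02 over complete coding transcripts (limma adjusted p = 0.920). Tal1 over Tcf3 changed from 1.34 to 0.15 there (limma adjusted p = 0.273). By complete coding transcripts the order of mean levels was Ssbp3, Ldb1, Cbfa2t3, Tal1, Tcf3, Lmo2, Tcf12, Lmo4, Lyl1 and Tcf4. The low set of 3 genes and the excess of Tal1 over Lyl1 and of Lmo2 over Lmo4 were present in each of the 3 measures, with Tal1 over Lyl1 at 48.3 and 62.5 times and Lmo2 over Lmo4 at 21.9 and 13.9 times over complete coding transcripts.

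**Figure D3:**
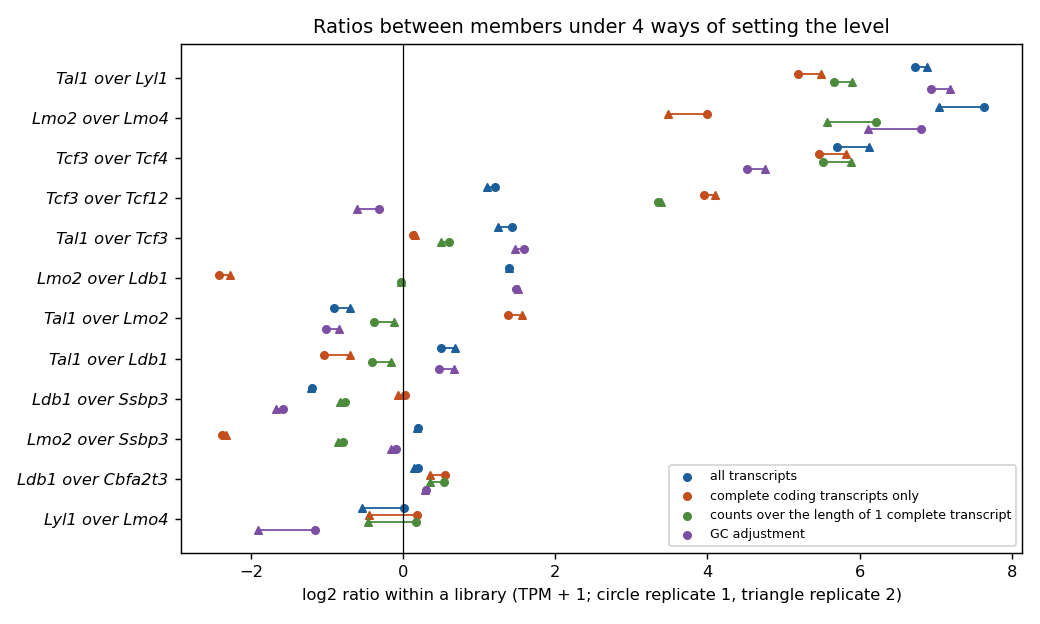
Log2 ratios of TPM + 1 within each library for 12 pairs of genes, with replicate 1 as circles and replicate 2 as triangles joined by a line, under 4 ways of setting the level. Ratios of Tal1 to Lyl1 and of Lmo2 to Lmo4 stay above 3 in every setting drawn, whereas Lmo2 over Ldb1, Tal1 over Lmo2 and Tcf3 over Tcf12 lie on both sides of 0.

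Because TAL1 needs an E protein to bind DNA, the summed E protein genes were set beside the summed TPM of Tal1 and Lyl1. The ratio was 0.531 in replicate 1 and 0.614 in replicate 2. Over complete coding transcripts it was 0.955 and 0.938, and with all counts over 1 complete length it was 0.716 and 0.769. The summed E protein RNA was thus below that of Tal1 and Lyl1 in both libraries under all 3 measures, but only slightly over complete coding transcripts. The difference between the sums was not tested, and RNA ratios give no protein ratio. The ID proteins, which bind E proteins but not DNA, were represented by Id1 alone at 38.5 ± 5.77 TPM. Id3 had 3 and 2 counts, and Id2 and Id4 had 0 counts, which is compatible with up to 3 counts per library. E protein genes exceeded the 4 Id genes 6.46-fold and 6.001-fold, and over complete coding transcripts 4.05-fold and 3.49-fold.

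Within the E proteins, Tcf3 exceeded Tcf12 2.33-fold and 2.16-fold in TPM (log2 ratio 1.16, SE 0.21, limma adjusted p = 5.12e-08). The ratio was 17.5 and 19.4 over complete coding transcripts and 10.95 and 11.2 over 1 complete length. An adjustment of log2 TPM for transcript GC content gave a log2 ratio of -0.46, which was not called (limma adjusted p = 0.0831), and shares of 41.5% for Tcf3 and 57.3% for Tcf12. The mean transcript GC content was 61.5% for Tcf3 and 46.9% for Tcf12, close to the ends of the range of the 10 genes. Its part in the ratio was not tested beyond this adjustment. The share of Tcf4 was between 0.744% and 1.21% in each of these measures.

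Tcf3 makes E12 and E47 by the use of 1 of 2 alternative exons that encode the bHLH region, and the transcript tables separate them. Coding transcripts with the E47 exon had 20815 counts in replicate 1 and 17329 in replicate 2, and coding transcripts with the E12 exon had 4253 and 3875. E47 therefore made 83.0% and 81.7% of the counts of both coding forms, and 83.6% and 81.8% of their TPM. Among the coding forms alone, this split was alike by TPM and by counts. A further 819-base model with the E12 exon and no coding sequence, Tcf3-212, held 15.4% and 19.1% of Tcf3 TPM but 4.49% and 5.47% of its counts. Over all Tcf3 transcripts, coding transcripts with the E47 exon held 70.4% and 65.9% of TPM, against 79.3% and 77.2% of counts.

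The exons are shown because reads are assigned to E12 or E47 by these sequences. They lie on the minus strand of chromosome 10, at chr10:80410398-80410624 for E47 (227 bases) and chr10:80412827-80413062 for E12 (236 bases), and are copied from the GENCODE M21 transcripts Tcf3-202 and Tcf3-201. In a global alignment 175 of 227 aligned bases were identical (77.1%), and capitals mark the bases that differ or have no counterpart in the other exon, 52 in E47 and 61 in E12. The differences are spread over both exons, and a long stretch near the middle is shared.
E47 exon: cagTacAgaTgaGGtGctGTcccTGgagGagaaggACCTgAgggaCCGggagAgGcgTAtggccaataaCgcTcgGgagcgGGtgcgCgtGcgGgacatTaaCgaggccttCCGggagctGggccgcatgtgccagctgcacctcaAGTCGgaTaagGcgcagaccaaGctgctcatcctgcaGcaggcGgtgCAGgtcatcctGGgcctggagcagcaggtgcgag
E12 exon: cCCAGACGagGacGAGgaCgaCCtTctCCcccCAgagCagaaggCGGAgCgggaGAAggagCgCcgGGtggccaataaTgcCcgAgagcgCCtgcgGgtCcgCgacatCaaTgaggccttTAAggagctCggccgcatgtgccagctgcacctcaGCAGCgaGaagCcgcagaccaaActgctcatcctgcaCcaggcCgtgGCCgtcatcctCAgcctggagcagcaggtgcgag

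Single Tcf3 transcripts varied more than the exon classes. Tcf3-202, which has the E47 exon, held 30.8% and 33.5% of TPM. Tcf3-207 held 13.7% and 22.5%, and Tcf3-205 held 23.1% and 7.76%. Transcripts that share the first exon group most 5′ in the gene took 72.1% of Tcf3 counts in replicate 1 and 86.5% in replicate 2, and those of the next group 23.4% and 8.00%. The estimated shares of the Tcf3 start groups thus differed between the libraries, mostly through Tcf3-205, which held 23.2% and 7.83% of counts. The share of E47 in coding transcripts differed by less than 2 percentage points. Reads in shared exons are divided between transcripts by estimation, and start sites were not measured.

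**Figure D4:**
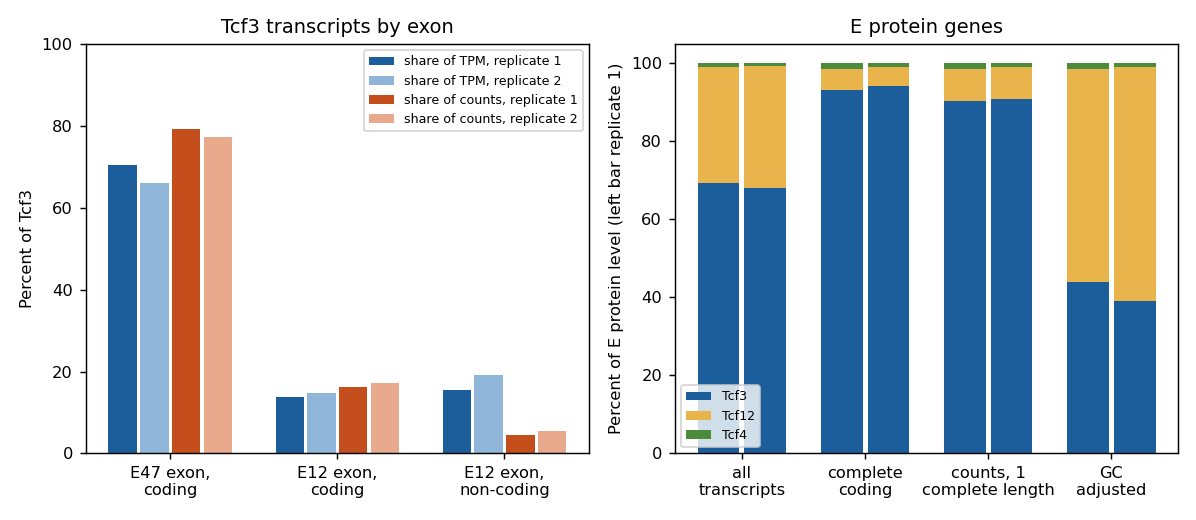
Left, percent of Tcf3 TPM and of Tcf3 counts on coding transcripts with the E47 exon, coding transcripts with the E12 exon and the non-coding model with the E12 exon, in each library. Right, percent of the summed level of Tcf3, Tcf12 and Tcf4 under 4 measures, with replicate 1 as the left bar; Tcf3 takes the larger share in 3 measures and the smaller share after GC adjustment.

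Other members also had counts assigned to more than 1 group of transcript starts. For Cbfa2t3, transcripts from the distal start (base 122699109) held 61.7% and 63.6% of counts, and transcripts from an internal start 20.9 kb downstream (base 122678175) held 36.7% and 35.2%. For Ldb1, the most 5′ group held 38.5% and 39.2%, and the group 5.6 kb downstream held 61.3% and 60.5%. The libraries differed by less than 2 percentage points in each of these shares, so the estimated shares of these Cbfa2t3 and Ldb1 groups were nearly the same in both cultures. For Tal1, the group 3.1 kb downstream of the most 5′ start held 65.6% and 69.8% of counts, and that of Tal1-202 held 26.3% and 23.2%. For Lmo2, the most distal start held 3.82% and 1.95% of counts, and both groups 11.5 and 12.1 kb downstream held 37.6% and 58.5% in replicate 1 and 40.9% and 57.1% in replicate 2. Reads in exons shared between transcripts are divided by estimation, so these shares are estimates and not counts of start sites.

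**Figure D5:**
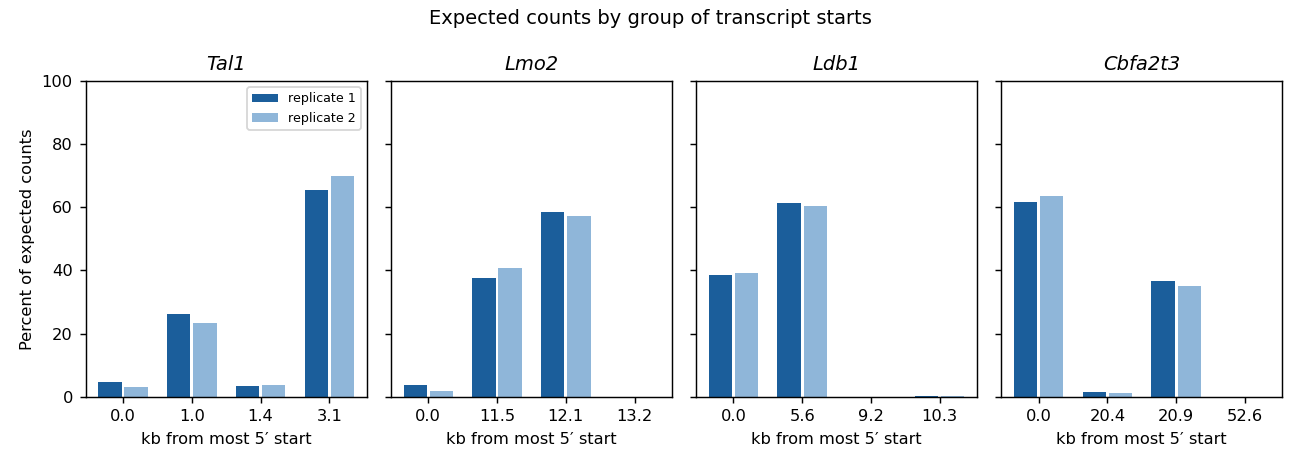
Percent of a gene's expected counts on transcripts grouped by overlapping first exons, in order from the most 5′ start, with the distance of each group from that start in kb. Replicate 1 is dark and replicate 2 light; the 61.7% and 63.6% of Cbfa2t3 at its distal start are the tallest bars of that gene.

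Promoter sequences of Cbfa2t3, Ssbp3 and Ldb1 are shown because each of these genes has a pair of starts with a promoter entry and at least 17.2% of its counts at either start in both libraries. For Ssbp3, the upstream start (base 106911470) held 72.1% and 74.4% of counts, and the start 11.7 kb downstream (base 106923185), that of Ssbp3-211, held 19.7% and 17.2% of counts and 49.2% and 46.3% of TPM. The windows are the 250 bases before each start, read 5′ to 3′ on the strand of the gene, from RefSeq on GRCm38.p6, the assembly also called mm10. Capitals mark matches on either strand to a GATA motif, defined as the letters GATA with A or T before them and A or G after them, and to E-boxes. The E-box searched first was CAGCTG, which reads the same on both strands. The other E-box searched was CAGGTG. Further E-box sequences, such as CAGATG, were not searched, so lower-case letters and windows without a match can hold them. No match overlapped another.
Cbfa2t3 distal start, chr8:122699110-122699359, minus strand: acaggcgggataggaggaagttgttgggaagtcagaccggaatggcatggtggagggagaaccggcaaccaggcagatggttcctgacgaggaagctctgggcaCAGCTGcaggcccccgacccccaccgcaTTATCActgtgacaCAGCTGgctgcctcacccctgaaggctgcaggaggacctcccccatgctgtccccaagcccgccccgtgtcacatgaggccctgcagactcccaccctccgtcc
Cbfa2t3 internal start, chr8:122678176-122678425, minus strand: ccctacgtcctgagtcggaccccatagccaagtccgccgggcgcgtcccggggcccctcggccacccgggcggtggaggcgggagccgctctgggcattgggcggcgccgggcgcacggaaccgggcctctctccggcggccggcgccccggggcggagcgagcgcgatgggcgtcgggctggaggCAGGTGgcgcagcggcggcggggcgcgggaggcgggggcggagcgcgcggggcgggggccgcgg
Ssbp3 upstream start, chr4:106911220-106911469, plus strand: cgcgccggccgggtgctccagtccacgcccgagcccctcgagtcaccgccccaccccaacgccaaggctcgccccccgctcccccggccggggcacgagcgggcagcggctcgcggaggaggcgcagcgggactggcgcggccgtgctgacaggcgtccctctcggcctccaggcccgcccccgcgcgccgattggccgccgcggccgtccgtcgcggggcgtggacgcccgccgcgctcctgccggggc
Ssbp3 downstream start, chr4:106922935-106923184, plus strand: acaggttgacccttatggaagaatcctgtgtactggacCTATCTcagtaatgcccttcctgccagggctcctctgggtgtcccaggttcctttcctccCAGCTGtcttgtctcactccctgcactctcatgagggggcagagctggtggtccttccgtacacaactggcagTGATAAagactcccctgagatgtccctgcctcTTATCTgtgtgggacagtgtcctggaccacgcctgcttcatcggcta
Ldb1 upstream start, chr19:46045312-46045561, minus strand: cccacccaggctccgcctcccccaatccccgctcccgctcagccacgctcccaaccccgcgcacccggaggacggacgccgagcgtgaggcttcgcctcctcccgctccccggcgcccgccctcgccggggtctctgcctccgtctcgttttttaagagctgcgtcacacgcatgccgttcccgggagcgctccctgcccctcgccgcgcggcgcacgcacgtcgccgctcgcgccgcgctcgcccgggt
Ldb1 internal start, chr19:46039622-46039871, minus strand: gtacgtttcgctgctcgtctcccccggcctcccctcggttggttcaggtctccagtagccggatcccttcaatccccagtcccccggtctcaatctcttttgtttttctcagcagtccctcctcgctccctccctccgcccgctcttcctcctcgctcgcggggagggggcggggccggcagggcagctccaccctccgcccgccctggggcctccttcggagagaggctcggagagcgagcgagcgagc

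The distal Cbfa2t3 window held 1 GATA motif and 2 matches of CAGCTG, and the internal window held 1 CAGGTG match. The upstream Ssbp3 window held no match, and the downstream window held 3 GATA motifs and 1 CAGCTG match. Neither Ldb1 window held a match; the upstream one ends at the RefSeq start, 97 bases before the first base of that group. A further Ldb1 entry, at base 46037070, held 2 GATA motifs, and no transcript group of the library tables starts there. RefSeq entries were found for 17 promoters of 8 of the 10 genes, and none was used for Lmo2 or Tcf4. A GATA motif was present in 4 of the 17 windows and in 26.5% of all 32851 promoter windows of this length. CAGCTG was present in 3 of 17 and in 13.0% of all windows, and CAGGTG in 2 of 17 and in 17.2%. These are letter matches, and no binding was measured here.

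The libraries gave similar levels for most of the 10 genes and for most genes tested. After TMM scaling, 1 of 10 differed by more than 1.5-fold, a share near the 15.5% among the 10441 genes tested. That gene was Lmo4, which was 1.58-fold higher in replicate 2, from 285 and 327 counts, and with TPM in place of scaled counts none of the 10 passed this fold. The other 9 differed by between 1.04-fold for Cbfa2t3 and Ssbp3 and 1.19-fold for Tcf4. After TMM scaling the median absolute log2 difference was 0.15 for the 10 genes and 0.24 for all genes tested. With TPM it was 0.20 and 0.17, and 6.93% of all genes tested passed 1.5-fold. Whether the 10 genes were closer between libraries than other genes thus depended on the measure. Of 6 myeloid marker genes none reached 1 TPM in both libraries, but their sum was 0.32 TPM in replicate 1 and 10.9 TPM in replicate 2. Mpo had 0.19 and 3.96 TPM, Prtn3 0.08 and 3.76 TPM, and Elane 0.04 and 3.04 TPM, while S100a8 had 0 counts. The part of these transcripts in the difference of Lmo4 was not tested, and in a bulk sample more cells of a type cannot be told apart from more RNA per cell. All 10 erythroid markers reached 1 TPM in both libraries, and none of the 5 mast cell, 5 lymphoid, 4 endothelial or 5 stem and progenitor markers did. Of 6 megakaryocyte markers, 2 did.

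Genes around the complex were taken from fixed lists. Of 8 paralogs outside the 10 genes, 3 reached 1 TPM in both libraries: Ssbp4 at 141 ± 15.0 TPM, Ssbp2 at 24.8 ± 0.495 TPM and Cbfa2t2 at 3.54 ± 0.361 TPM. Ldb2 and Runx1t1 had 0 counts, with the same upper limit of 3, and Tal2, Lmo1 and Lmo3 had at most 8 counts. Ssbp3 therefore had an expressed relative in Ssbp4, whereas Ldb1 and Lmo2 had none above 5 TPM among the paralogs measured.

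Of 7 DNA-binding partners, 6 passed 1 TPM in both libraries. Gata1, counted on a gene model that does not separate the introduced fusion from the endogenous locus, was highest and had 4.89 and 3.88 times the TPM of Tal1. Klf1, an erythroid zinc finger factor, had 721 ± 62.0 TPM, and Runx1, a hematopoietic factor, 181 ± 17.6 TPM. Erg was lowest, at 0.085 ± 0.0495 TPM. Of 15 cofactors, 14 passed, ranging from Gfi1b, a zinc finger repressor, at 250 ± 58.5 TPM down to Rlim, a ubiquitin ligase for LIM cofactors, at 1.41 ± 0.580 TPM.

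Of 13 genes known to be bound by the complex in red cell precursors, 11 reached 1 TPM in both libraries. The beta-like globin gene Hbb-bs was highest, at 144036 ± 14450 TPM. Kit, the receptor for stem cell factor, at 0.810 ± 0.0849 TPM and Myb, a progenitor regulator, at 0.150 ± 0.0141 TPM were the exceptions. Both are known to be switched off as red cell precursors mature, and without an untreated library their change was not measured. Gata2, on the same list, had 23.05 and 34.68 TPM, so the low levels of Kit and Myb do not stand for the rest of the list.

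Some rows share genome sequence with neighbours, and no source used here states how strand was treated. The span of Lyl1 overlaps Nfix on the opposite strand, which had 1482 and 1024 counts against 363 and 233 for Lyl1, so part of the Lyl1 reads cannot be assigned with certainty. Ldb1 overlaps Pprc1 on the opposite strand, with 1359 and 779 counts against 42507 and 28191 for Ldb1.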

How the data were processed

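Poly(A) RNA of 2 G1E-ER4 libraries was measured by paired-end RNA-seq. Per the file headers and the deposited description files, the authors gave expected counts (estimated fragments, not whole), TPM, FPKM and the percent of a gene's TPM per transcript, on mm10 with GENCODE M4. Posterior mean TPM values were also deposited by the authors. No source used here names the aligner or the quantification program (not given in the sources). The 43346 gene rows summed to 73681318 and 56056404 expected counts. Another 26248 rows named by a number and 97 spike-in rows held 5 and 4 counts and were left out. Names, transcript types and GC content came from GENCODE M21, which matched 42462 gene rows. Its models may differ from M4.

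Ratios of log2(TPM + 1) of every gene over a reference member were fitted with limma 3.58.1 (R 4.3.3), with a trend and Benjamini-Hochberg adjustment, over genes with at least 20 summed counts. The pseudocount of 1 understates ratios of low genes. TMM scaling used edgeR 4.0.16, and size factors from DESeq2 1.42.0 were an alternative, both on expected counts rounded to whole numbers. The GC adjustment subtracted a lowess curve with a span of 0.5. Alternatives were pseudocounts of 0.1 and 0.01 TPM, FPKM, posterior mean TPM, no filter or a filter at 1 TPM, no trend, protein-coding transcripts only, library totals, and both measures added after seeing the data. On simulated data with 10440 genes, the ratio step called 0% of 50 genes at a true log2 ratio of 0, 12% at 1, and 100% at 2 and at 4. The median estimates were -0.20, 0.69, 1.65 and 3.59, below the true ratios. The simulation used 1 common dispersion and 1 reference gene, whose draw all estimates share. Its spread and shift can therefore differ from those of the real fits. No true log2 ratio between 0 and 1 was simulated, so it cannot judge called log2 differences below 1. All 10 members are named, with transcripts of at least 10% mean share. Of other lists the highest, the lowest and those a ratio turns on are named. Id3, Kit, Gata2, Epb42, Mpo, Prtn3, Elane, Runx1, Klf1, Rlim and the expressed paralogs were named after their values were seen. The value of 1 cofactor is not reported here. Members and lists were chosen with earlier results of these data known.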

Additional observations from a re-analysis of the deposited data

How the results depend on the processing

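Counts of called pairs stayed between 40 and 43 of 45 over 11 alternatives, and the 15 pairs of neighbouring or partner genes followed in each gave 165 outcomes. Of these, 119 kept a call and its direction, 26 stayed uncalled, 8 lost the call, 7 gained one and 5 were called in the opposite direction. Over complete coding transcripts, chosen after seeing the data, the log2 ratio was -2.36 for Lmo2 over Ssbp3, -0.87 for Tal1 over Ldb1, 1.47 for Tal1 over Lmo2 and -2.34 for Lmo2 over Ldb1. With all counts over 1 complete length, also added later, it was -0.82 for Lmo2 over Ssbp3 and, not called, -0.28 for Tal1 over Ldb1 and -0.028 for Lmo2 over Ldb1. With protein-coding transcripts alone, Tal1 over Ssbp3 was 0.57. After GC adjustment Tcf3 over Tcf12 was -0.46, not called, and Lyl1 over Tcf4 was -0.90. The construction of the transcript measures, which leave out or lengthen short models, moves these values, and the cause of the GC dependence was not tested.

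Family shares, in the order expected counts, complete coding transcripts, 1 complete length and GC adjustment, were 99.2%, 98.2%, 98.7% and 99.7% for Tal1, 98.7%, 94.5%, 98.7% and 99.1% for Lmo2, 82.1%, 93.7%, 90.7% and 41.5% for Tcf3, and 17.1%, 5.09%, 8.19% and 57.3% for Tcf12. Protein-coding transcripts alone gave 66.2% for Tcf3 and 32.9% for Tcf12. Tcf4 was at 1.21%, 1.12% and 1.16% over complete coding transcripts, 1 complete length and GC adjustment. With 1 library left out, shares ranged from 99.3% to 99.4% for Tal1, 99.4% to 99.6% for Lmo2, 68.0% to 69.4% for Tcf3, 29.7% to 31.4% for Tcf12 and 0.595% to 0.894% for Tcf4, and all 10 genes stayed at 1 TPM or more. With TPM ratios 0 of 10 genes passed 1.5-fold between libraries. The pair test, the comparison of libraries and the count of shared leading transcripts need both libraries, so leaving 1 out gives no value. No paired analysis was possible because both libraries belong to 1 group. Depth limits Lyl1, Lmo4 and Tcf4, which had 190 to 363 counts.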
